A study of Capsella grandiflora x Capsella rubella and Capsella rubella and Capsella grandiflora with 8 samples.

Results

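Seeds of C. grandiflora mothers pollinated by C. rubella (Cg × Cr) were compared with seeds of C. grandiflora mothers pollinated by C. grandiflora (Cg), so that the mother species was held constant and the father changed. The libraries were taken from the sample labels, 2 for each cross and 4 of the 8 in the series, and 21214 of the 26521 genes in the count table passed a filter on low counts and were tested. The series also holds seeds of C. rubella mothers pollinated by C. rubella (Cr) and by C. grandiflora (Cr × Cg), which share the estimate of the spread and are used below to set the same change of father against the other mother. Per the labels and methods, female flowers of all crosses were emasculated and pollinated by hand, 300 to 500 whole seeds were pooled per replicate, and seeds were harvested at 6 days after pollination. The crosses used accessions of wild origin, Cg4a for C. grandiflora and Cr48.21 for C. rubella. C. grandiflora is an outcrosser and C. rubella a selfing species. Each library mixed embryo, endosperm and seed coat, so a change in the share or the stage of a tissue and a change in RNA per cell cannot be told apart.

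In a seed the embryo and the endosperm are both products of fertilization, whereas the seed coat is maternal tissue. The endosperm nourishes the embryo, in most flowering plants carries more maternal than paternal genomes, and is the tissue in which imprinted genes are mostly found and in which crosses between species or ploidies often fail. In Arabidopsis, it first grows as a syncytium under the control of type I MADS-box genes, and cell walls form later, when the embryo enters its growth and maturation phases.

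The 4 libraries held between 25734312 and 30005563 counts, and between 99.97 and 99.98% of these fell on tested genes. Levels are given as CPM, each gene's counts divided by the TMM-scaled library total and set to a common total. The log2(CPM + 0.5) values of genes, which do not count as replicates, gave a correlation r of 0.971 for the Cg × Cr pair of libraries and 0.974 for the Cg pair, against 0.922 to 0.948 between libraries of these crosses. Replicates differed by more than counting noise (chi-square per degree of freedom of 84.2 for Cg × Cr and 91.4 for Cg), and each library was counted on its own. The replicates of Cg × Cr were unequal in a group of 232 genes that were over 32-fold higher in Cr × Cg than in Cr, a group chosen on its level. Their summed level was 358 CPM in Cg × Cr replicate 1 and 822 CPM in replicate 2, against 4734 and 3490 CPM in Cg. Of these 232 genes, 214 were lower in Cg × Cr replicate 1 than in replicate 2, and counts are therefore also given below without either library.

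A change of father from C. grandiflora to C. rubella was accompanied by higher expression of 262 genes and lower expression of 279 genes in seeds of C. grandiflora mothers (edgeR's quasi-likelihood test, Benjamini-Hochberg adjusted p under 0.05). These were 1.24% and 1.32% of the genes tested, and 4325 genes had an unadjusted p under 0.05. Over the whole set of tested genes the log2 fold change had a median of 0.02. Genes that fell did so by more: their median log2 fold change was -3.74, with quartiles of -5.20 and -2.13, and 126 of them fell over 16-fold. Genes that rose had a median of 2.29, with quartiles of 1.47 and 4.49, and 73 of them rose over 16-fold. The smallest called changes were -0.85 and 0.86 on the log2 scale. In all 541 genes the libraries of the crosses did not overlap, which also held for 27.5% of all tested genes in the upward and 24.6% in the downward direction.

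**Figure D1:**
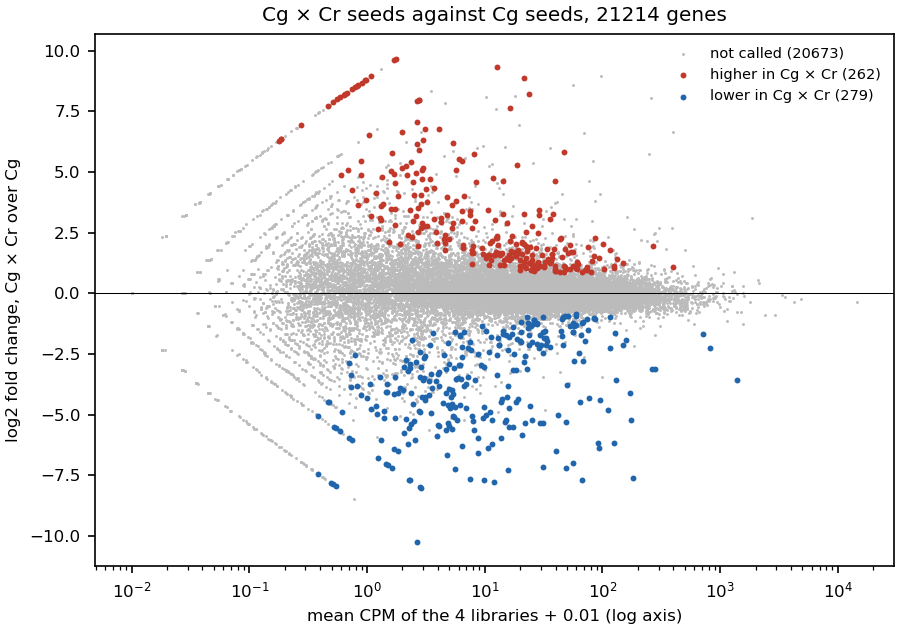
Mean level of each tested gene over the 4 libraries (x axis, CPM plus 0.01, log axis) against its log2 fold change in Cg × Cr over Cg (y axis). Red points are the 262 genes called higher, blue points the 279 called lower and grey points the others. The lowered genes reach larger changes at moderate and high levels, and the straight rays at the left are genes with a few counts in 1 cross and none in the other.

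As a share of the library, the raised genes took 0.896 and 0.932% of all counts in Cg × Cr, against 0.312 and 0.280% in Cg. The lowered genes took 0.238 and 0.342% in Cg × Cr, against 1.84 and 1.40% in Cg. A typical lowered gene was thus moderately expressed in Cg and close to silent in the hybrid, with median levels of 0.954 CPM in Cg × Cr and 15.3 CPM in Cg. The median level of raised genes was 18.5 CPM in Cg × Cr and 3.70 CPM in Cg. Of the lowered genes, 215 of 279 were lower in Cg × Cr replicate 1 than in replicate 2, with a median log2 ratio of -0.47 between these libraries, and of the raised genes 143 of 262, with a median of -0.03.

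Among genes called in every fit that left out 1 of the 4 libraries, 103 in all, the 10 largest increases were of genes that had almost no counts in Cg. Carubv10025718m.g had 764 and 674 counts in Cg × Cr, against 1 and 1 in Cg. The ratio of the summed, scaled counts was 725.4 (95% exact counting interval 200.4 to 5995.6, counting error only). Carubv10007936m.g had 1299 and 1146 counts in Cg × Cr, against 3 and 2 in Cg. Both hybrid libraries lay far above both Cg libraries, with a log2 fold change of 8.88 ± 0.30 (SE) and an adjusted p of 2.3e-05, the lowest of the named genes. In seeds of C. rubella mothers, Carubv10007936m.g had 5318 and 5042 counts in Cr, against 3370 and 2388 in Cr × Cg. None of the 10 genes was paired with an Arabidopsis gene in the tables used here, so their functions are not given.

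The other 8 genes of this group had no count in either Cg library. Carubv10021614m.g had 79 and 45 counts in Cg × Cr, at least 41.7-fold above the level that 3 counts over both Cg libraries would give. Carubv10019219m.g had 51 and 57 counts, at least 36.3-fold. Carubv10005812m.g, with 44 and 32 counts, had the lowest bound of the 8 genes, at least 25.6-fold. The bounds of Carubv10007803m.g, Carubv10025184m.g, Carubv10025518m.g, Carubv10007863m.g and Carubv10028246m.g lay between 28.6-fold and 37.0-fold, and the adjusted p of these 8 genes between 0.0019 and 0.0091 (edgeR, Benjamini-Hochberg). All 10 genes were expressed in Cr, with mean levels between 5.79 and 177 CPM.

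The 10 largest decreases in the same set of genes came from genes with mean levels between 4.64 and 359 CPM in Cg. Carubv10018549m.g, the closest match of Arabidopsis AT2G19802, had 36 and 66 counts in Cg × Cr, against 11117 and 9417 in Cg. The hybrid retained 0.514% of the Cg level, a log2 fold change of -7.61 ± 0.44 (SE; edgeR adjusted p of 0.00039). Carubv10015821m.g, a homologue of AT2G30810 of the gibberellin-regulated (GASA) family of small cysteine-rich peptides, had 1 and 4 counts in Cg × Cr, against 641 and 476 in Cg. Both genes were close to silent in each hybrid library and clearly expressed in each Cg library.

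Carubv10021607m.g, a homologue of the pectinesterase-like gene AT3G24130, had 0 and 1 counts in Cg × Cr, against 113 and 201 in Cg. Its level in Cg was 311.2 times that in Cg × Cr, with a 95% exact counting interval of 55.5 to 12331.6. Carubv10021543m.g had 1 and 0 counts in Cg × Cr, against 198 and 128 in Cg. Carubv10015566m.g (AT2G13542) had 0 and 1 counts in Cg × Cr, against 184 and 85 in Cg. In these 3 genes the hybrid seeds were at the detection limit, so the size of the decrease is known only as a wide interval, from 47.4-fold upward in the least certain.

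Carubv10002421m.g (AT4G08530) had 24 and 13 counts in Cg × Cr, against 3861 and 1770 in Cg. Carubv10007086m.g (AT4G23110) had 2 and 2 counts in Cg × Cr, against 308 and 331 in Cg. Carubv10007116m.g had 7 and 4 counts in Cg × Cr, against 1294 and 517 in Cg. The remaining members of the set, Carubv10006196m.g (AT5G32619) and Carubv10015802m.g, had log2 fold changes of -7.78 ± 0.82 and -7.64 ± 0.79 (SE), each with 1 hybrid library at 0 and the other at 6 and 4 counts.

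**Figure D2:**
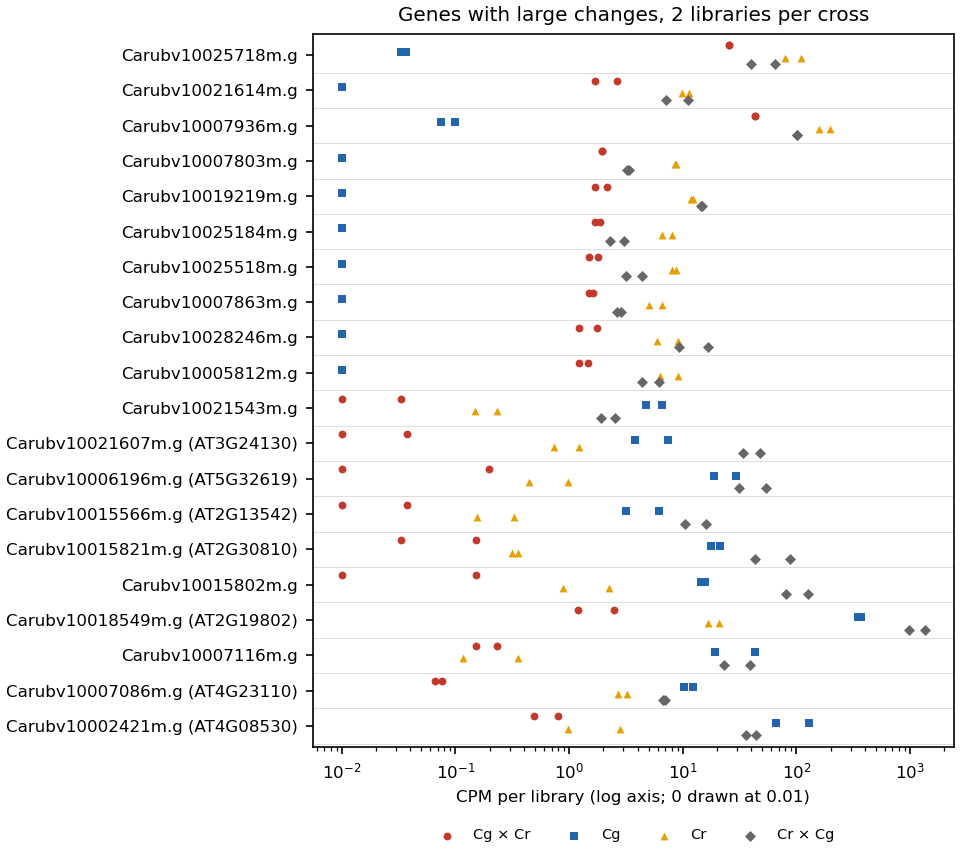
Level of the 20 genes with the largest changes among those called in each fit without 1 of the 4 libraries (rows; x axis, CPM per library, log axis, with 0 drawn at 0.01). Red circles are Cg × Cr, blue squares Cg, orange triangles Cr and grey diamonds Cr × Cg, 2 libraries each. In the upper 10 genes Cg stands apart to the left of the other 3 crosses, and in the lower 10 the crosses with a C. rubella father lie left of those with a C. grandiflora father.

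At the upper end of expression, changes were smaller. The most abundant raised gene, Carubv10024372m.g, had 551 and 519 CPM in Cg × Cr, against 277 and 231 CPM in Cg. Carubv10025418m.g is the homologue of AT2G25940, the vacuolar processing enzyme alpha-VPE, a protease that matures vacuolar proteins. Its level was 325 and 526 CPM in Cg × Cr, against 133 and 88.8 CPM in Cg, a log2 fold change of 1.94 ± 0.38 (SE; edgeR adjusted p of 0.043). A second gene of this enzyme family, Carubv10020164m.g (AT1G62710, the seed enzyme beta-VPE), had 78.1 and 93.0 CPM in Cg × Cr, against 22.9 and 19.5 CPM in Cg, with a log2 fold change of 2.01 ± 0.31 (SE; adjusted p of 0.017). Both processing enzymes rose, by 3.84 and 4.03 times, but lost their calls in each fit without 1 of the 4 libraries, with adjusted p of 0.061 to 0.19 for alpha-VPE and 0.053 to 0.11 for beta-VPE. Carubv10024677m.g, Carubv10013886m.g and Carubv10005811m.g, the last a homologue of AT4G15630 of the CASP-like membrane proteins, rose between 2.09 and 2.64 times.

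Carubv10027521m.g was the lowered gene with the highest level. It is a homologue of AT5G46960, of the family of invertase and pectin methylesterase inhibitors. It had 150 and 285 CPM in Cg × Cr, against 3440 and 1694 CPM in Cg, so the hybrid stood at 8.48% of the Cg mean, with a log2 fold change of -3.56 ± 0.45 (SE; adjusted p of 0.0078). Carubv10018340m.g, a homologue of the plant defensin gene AT2G02100, had 161 and 409 CPM in Cg × Cr, against 1582 and 1160 CPM in Cg. Carubv10028482m.g had 49.6 and 67.7 CPM in Cg × Cr, against 539 and 473 CPM in Cg. Carubv10003889m.g, at 30.9% of the Cg level, and Carubv10003363m.g (AT5G08360), at 11.6%, complete the 5 most abundant lowered genes. Of these 10 abundant genes, 8 lost their call in at least 1 fit without a library of the comparison, with adjusted p up to 0.19, and Carubv10027521m.g and Carubv10028482m.g were called in all 4.

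The same change of father was made with C. rubella mothers, in the 4 libraries that the comparison above does not hold. The study reports that all Cr × Cg seeds aborted, with delayed embryos and endosperm that did not form cell walls. In Cg × Cr it reports cell walls that formed early. Seed stage and seed failure thus differ along with the father, and their part in the values below was not tested. In these 4 libraries, 10.3% of tested genes were higher and 12.4% lower in Cr than in Cr × Cg. Of the 279 genes lowered by the C. rubella father in Cg mothers, 197 (70.6%) were also called lower in Cr than in Cr × Cg, 14 were called in the other direction, and the median log2 fold change of the 279 was -3.34. Of the 262 raised genes, 93 (35.5%) were also called higher in Cr than in Cr × Cg, 3 were called in the other direction, and the median was 0.69. Over all tested genes the father effects correlated with r of 0.428 across genes, given as a description.

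**Figure D3:**
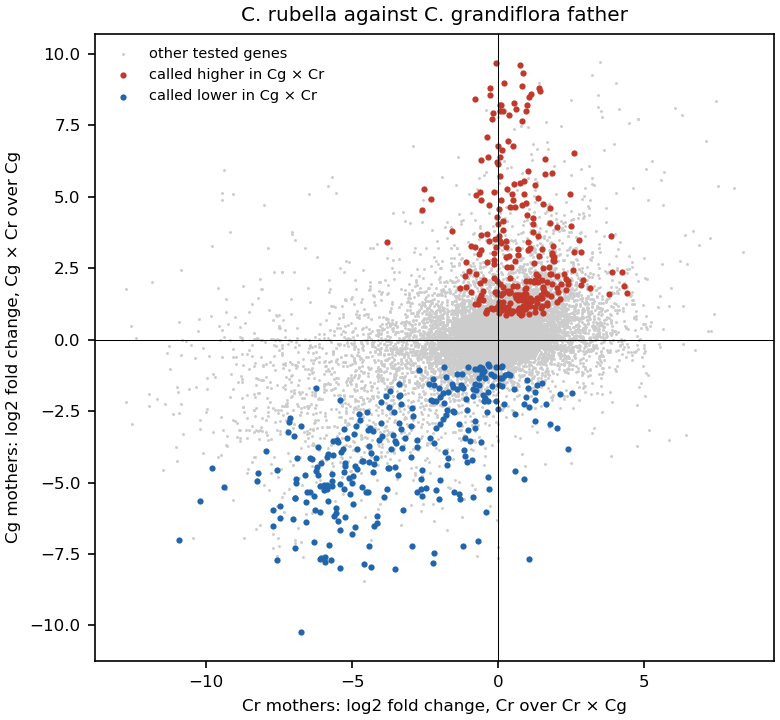
Log2 fold change with a C. rubella against a C. grandiflora father, in seeds of Cr mothers (x axis, Cr over Cr × Cg) and of Cg mothers (y axis, Cg × Cr over Cg), with separate libraries on each axis. Blue points, genes called lower in Cg × Cr, mostly lie at negative values on both axes, and red points, genes called higher, reach 9.67 on the y axis.

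Without Cg × Cr replicate 1, 89 genes were higher and 89 lower than in Cg, and 82.0% of these lowered genes were called lower in Cr than in Cr × Cg. Without Cg × Cr replicate 2, 139 genes were higher and 289 lower, and the share was 78.5%. For raised genes the shares called higher in Cr mothers were 32.6% and 27.3% without replicate 1 and 2. Against Cg, with which Cg × Cr shares its control libraries, the median log2 fold change of the 279 lowered genes was -2.33 in Cr and 0.69 in Cr × Cg, and that of the 262 raised genes 1.78 and 0.79.

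Genes lowered with either mother included several that were strongly expressed when the father was C. grandiflora. Carubv10024940m.g is a homologue of AT5G47550, a cystatin that inhibits cysteine proteases. It had 24 and 25 counts in Cg × Cr, against 3020 and 3319 in Cg. With C. rubella mothers it had 2 and 1 counts in Cr, against 4485 and 1846 in Cr × Cg. Both crosses with a C. grandiflora father stood far above both with a C. rubella father, and the log2 fold change in Cg mothers was -7.00 ± 0.36 (SE; adjusted p of 0.00025). Carubv10006434m.g (AT4G15735) had 47 and 76 counts in Cg × Cr, against 6289 and 4379 in Cg, and 195 and 150 in Cr, against 21674 and 11227 in Cr × Cg. Carubv10028632m.g (AT5G48945) had 4 and 6 counts in Cg × Cr, against 292 and 230 in Cg, and 10 and 12 in Cr, against 609 and 599 in Cr × Cg. Carubv10018711m.g (AT3G48209) had log2 fold changes of -3.79 in Cg mothers and -3.29 in Cr mothers, both called.

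The difference between the father effects was itself tested as an interaction in the same fit, and 5.85% of all tested genes passed. Of the 262 raised genes 107 (40.8%) passed, and 56 of these had the opposite sign in Cr mothers. Of the 279 lowered genes 53 (19.0%) passed, and 26 of these had the opposite sign. Since these genes were selected on 1 arm of the interaction, these shares are a description. Carubv10018340m.g, the defensin homologue, fell in Cg mothers and was higher in Cr than in Cr × Cg, where it had 662 and 439 CPM in Cr, against 203 and 151 CPM in Cr × Cg. Carubv10026830m.g is a homologue of AT5G48850, a gene induced by sulphur deficiency (SDI1), and had 70 and 48 counts in Cg × Cr, against 1235 and 487 in Cg (adjusted p of 0.018, and up to 0.094 without 1 library). In Cr mothers it had 59 and 72 counts in Cr, against 7 and 16 in Cr × Cg, the reverse order.

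The reference genome was that of C. rubella for every library, so in a gene with no count in Cg, a C. grandiflora copy that is not expressed and one whose reads did not align cannot be told apart. Of the tested genes, 38 had no count in Cg and a mean of at least 1 CPM in Cr. In Cg × Cr, where the C. rubella copy came from the father, 35 of them had counts in both libraries, 1 had none, and the median level was 19.7% of that in Cr. In Cr × Cg, where that copy came from the mother, the median was 58.7%. Of these 38 genes, 20 were called higher in Cg × Cr, at levels between 12% and 62.7% of Cr. In the opposite class, 102 genes had no count in Cr and a mean of at least 1 CPM in Cg, and their median level was 74.6% of that in Cg when the C. grandiflora copy came from the mother (Cg × Cr) and 9.22% when it came from the father (Cr × Cg). None of the 102 was called in Cg × Cr against Cg. In both classes the hybrid level was nearer to that of the parent when the copy came from the mother, and the cause was not tested.

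A gene seen almost only in Cg × Cr stands apart from these. Carubv10027725m.g had 151 and 54 counts in Cg × Cr and none in Cg, at least 68.9-fold higher. It had 1 and 2 counts in Cr and 1 and 2 in Cr × Cg. Its call against Cg was lost in at least 1 fit without a library of the comparison, with an adjusted p of up to 0.081.

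The study paired Capsella genes with Arabidopsis genes only where they were on its lists of changed genes or were type I MADS-box genes, so 78 of the 262 raised and 163 of the 279 lowered genes had an Arabidopsis name. These lists were in part chosen on the present libraries: 396 tested genes were on a list of genes changed in Cg × Cr. Of the groups described below, these lists hold 3 of 6 late embryogenesis abundant genes, 3 of 9 endosperm regulators, 2 of 8 embryo regulators, 4 of 19 pectinesterases, 1 of 13 storage and oil body genes and none of the type I MADS-box genes. They also hold 21 of 241, 60 of 345, 61 of 830 and 60 of 1063 members of the osd1 lists, in the order given below. Calls among all of these groups except the type I MADS-box genes are therefore not independent evidence. Of all 3316 paired genes, 2.35% were called higher and 4.92% lower. The shares of members below are read against these as well as against 1.24% and 1.32%.

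A set of 4 lists of the study holds homologues of genes changed in Arabidopsis seeds with unreduced gametes of the osd1 mutant, chosen there in Arabidopsis. In seeds with extra maternal genomes (osd1 × WT), the 241 tested homologues of raised genes had log2 fold changes of Cg × Cr over Cg with a median of 1.17, and 14 of them (5.81%) were called higher and 2 (0.830%) lower. Of the 345 homologues of genes lowered in such seeds, 35 (10.1%) were called lower and 3 higher, with a median of -0.54. In seeds with extra paternal genomes (WT × osd1), 76 of the 830 homologues of raised genes (9.16%) were called lower and 7 higher, with a median of -0.49. Of the 1063 homologues of genes lowered in those seeds, 24 (2.26%) were called higher and 23 (2.16%) lower, with a median of 0.22. Both shares were under those of all paired genes, 2.35% and 4.92%. Without Cg replicate 1 the 24 higher calls became 1 and the 23 lower calls 8, the 14 higher calls of the first list became 2, the 35 lower calls of the second 14 and the 76 lower calls of the third 24. In the fit of both crosses only, 35 genes of the first list were called higher. The lists share genes, and 23 of the lowered genes stand on at least 2 of them, so their counts are not independent.

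Raised genes on the first list included Carubv10009855m.g, a homologue of AT1G11190, the senescence- and cell death-associated nuclease BFN1. It had 1882 and 1709 counts in Cg × Cr, against 315 and 122 in Cg, a log2 fold change of 3.08 ± 0.47 (SE; edgeR adjusted p of 0.020, and up to 0.069 without 1 library). Carubv10005866m.g, a homologue of the dehydrin gene AT4G38410, had 259 and 355 counts in Cg × Cr, against 7 and 11 in Cg. Dehydrins protect cells during water loss. With a log2 fold change of 5.09 ± 0.63 (SE; adjusted p of 0.0070, and up to 0.062 without 1 library), it rose more than the nuclease, and both were also called higher in Cr than in Cr × Cg. Carubv10005768m.g (AT4G15715) and Carubv10024631m.g (AT2G31480) rose although they belong to paternal-excess lists of opposite directions, with log2 fold changes of 5.73 ± 0.41 and 4.71 ± 0.49 (SE).

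Type I AGAMOUS-LIKE genes, MADS-box transcription factors expressed mainly in the endosperm and in the female gametophyte, were taken from the study's table of 86 genes, of which 48 passed the filter over all 8 libraries. None was called with edgeR, 11 had an unadjusted p under 0.05, and DESeq2 called 3 lower. Both Cg × Cr libraries lay below both Cg libraries in 21 of 48 (43.8%) and above both in 0, as did 24.6% and 27.5% of all tested genes. The median log2 fold change was -1.35, or -0.96 with genes at 0 in a cross set to the bound of 3 counts. Carubv10002683m.g, Carubv10011345m.g, Carubv10012009m.g and Carubv10024968m.g had no count in the compared libraries and passed the filter only through Cr × Cg. Others also passed only through Cr × Cg and had few counts elsewhere. Carubv10015395m.g had 0 and 0 counts in Cg × Cr, against 1 and 2 in Cg, and 26 and 15 in Cr × Cg. Carubv10003161m.g had 1 and 1 counts in Cg × Cr, against 4 and 3 in Cg, and 44 and 47 in Cr × Cg. Such genes count among the 21. The share of 43.8% and the median thus rest in part on genes near the floor that entered through Cr × Cg, and are a description. The lowest adjusted p was 0.061. It belonged to Carubv10011611m.g (AT1G31630), which had 6 and 18 counts in Cg × Cr, against 158 and 95 in Cg. Carubv10010156m.g (AT1G01530) had 7 and 62 counts in Cg × Cr, against 323 and 277 in Cg, and the hybrid replicates differed in the same direction in 34 of the 48 genes. Without Cg × Cr replicate 2, the higher of the replicates in these genes, 4 were called lower.

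Storage and oil body genes lay on the other side. Of 17 seed storage and oil body genes asked for, 13 were paired and tested, all of them on osd1 lists, and in all 13 both Cg × Cr libraries exceeded both Cg libraries, as in 27.5% of all tested genes. The list includes Carubv10007752m.g (AT4G34520, log2 fold change of 5.24), which encodes a fatty acid elongase and not a storage or oil body protein. The median log2 fold change was 5.24, but none was called in the 4-cross fit: p lay between 0.018 and 0.17, 4 were under 0.05, and the adjusted p between 0.15 and 0.44. Their summed level was 5187 and 2467 CPM in Cg × Cr, against 458 and 231 CPM in Cg. In the crosses that share the estimate of the spread, replicates were very unequal, with 13357 and 1122 CPM in Cr and 1323 and 75.4 CPM in Cr × Cg. A fit of Cg × Cr and Cg alone called 6 of the 13 higher, and DESeq2 called 2.

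Among single members, Carubv10006612m.g, the homologue of the 12S globulin gene CRUCIFERIN C (AT4G28520), had 40590 and 6288 counts in Cg × Cr, against 354 and 113 in Cg. The 2S albumin homologue Carubv10028644m.g (SESA4, AT4G27170) had 22899 and 7272 counts in Cg × Cr, against 100 and 14 in Cg. The oleosin homologue Carubv10007289m.g (OLEO1, AT4G25140), which coats oil bodies, had 21698 and 17028 counts in Cg × Cr, against 3999 and 2104 in Cg. Each of these genes was higher in both hybrid libraries, and the hybrid replicates themselves differed up to several-fold for the storage proteins. Of 6 late embryogenesis abundant genes, 5 did not overlap upward, against 27.5% of all tested genes, and none was called (DESeq2 called 2, and 3 had an unadjusted p under 0.05), as in Carubv10016274m.g (AT3G15670) with 1332 and 727 counts in Cg × Cr, against 3 and 4 in Cg.

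Of 8 embryo regulators tested, 1 was called, and it fell. Carubv10010882m.g, the homologue of LEAFY COTYLEDON2 (AT1G28300), a B3 transcription factor of embryogenesis and early maturation, had 23.5 and 38.4 CPM in Cg × Cr, against 103 and 100 CPM in Cg. It fell by 1.71 ± 0.32 (SE; edgeR adjusted p of 0.037) on the log2 scale, and the log2 fold change in Cr mothers was 1.02, a difference that passed the interaction test (adjusted p of 0.016). The call of the decrease was lost in 3 of the 4 fits without a library of the comparison, with an adjusted p of up to 0.17. The homologue of FUSCA3, Carubv10019353m.g, had 174 and 106 CPM in Cg × Cr, against 75.2 and 26.6 CPM in Cg. The homologue of the zinc-finger gene PEI1, Carubv10002521m.g, had 40.4 and 38.5 CPM in Cg × Cr, against 11.5 and 6.21 CPM in Cg, and that of ABI5, Carubv10025255m.g, 3.49 and 3.63 CPM in Cg × Cr, against 0.633 and 0.444 CPM in Cg. These 3 genes had adjusted p between 0.099 and 0.32. They were among 5 of the 8 regulators that lay higher without overlap, as did 27.5% of all tested genes. Carubv10018845m.g, the homologue of the oil synthesis regulator WRINKLED1, lay the other way with 191 and 195 CPM in Cg × Cr, against 314 and 337 CPM in Cg (adjusted p of 0.13). This gene and the LEAFY COTYLEDON2 homologue were the 2 of 8 that lay lower without overlap, against 24.6% of all tested genes.

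Endosperm regulators were represented by 9 tested genes, of which 1 was called lower and 5 lay lower without overlap, against 24.6% of all tested genes. The called gene was Carubv10011619m.g, the homologue of MINISEED3 (AT1G55600), a WRKY factor that promotes endosperm growth, with 8 and 27 counts in Cg × Cr, against 180 and 181 in Cg. It fell by 3.32 ± 0.58 (SE; edgeR adjusted p of 0.030) on the log2 scale. Its call was lost in 3 of the 4 fits without a library of the comparison, with adjusted p up to 0.11, and in the fit of both crosses only (0.066). With C. rubella mothers it had 31 and 53 counts in Cr, against 1402 and 1135 in Cr × Cg. Both crosses with a C. rubella father were low. Carubv10007084m.g, the homologue of FWA, which in Arabidopsis endosperm is expressed from the maternal copy, had 43 and 60 counts in Cg × Cr, against 288 and 164 in Cg (adjusted p of 0.061). Homologues of the Polycomb genes MEDEA and FIS2, which repress endosperm growth in Arabidopsis, were also lower without overlap. Carubv10012183m.g (MEDEA) had 0 and 8 counts in Cg × Cr, against 24 and 27 in Cg, and Carubv10024660m.g (FIS2) 36 and 97 in Cg × Cr, against 235 and 194 in Cg, with adjusted p of 0.18 and 0.19. Carubv10011964m.g and Carubv10017099m.g, homologues of ZHOUPI and ICE1, whose proteins act together in endosperm breakdown, overlapped between the crosses, with 456 and 1064 counts in Cg × Cr, against 1151 and 920 in Cg, for the first. For the homologue of AGL62, Carubv10028580m.g, only 8 counts were seen in 1 hybrid library and none in the other or in Cg, so no change was detectable at this depth.

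**Figure D4:**
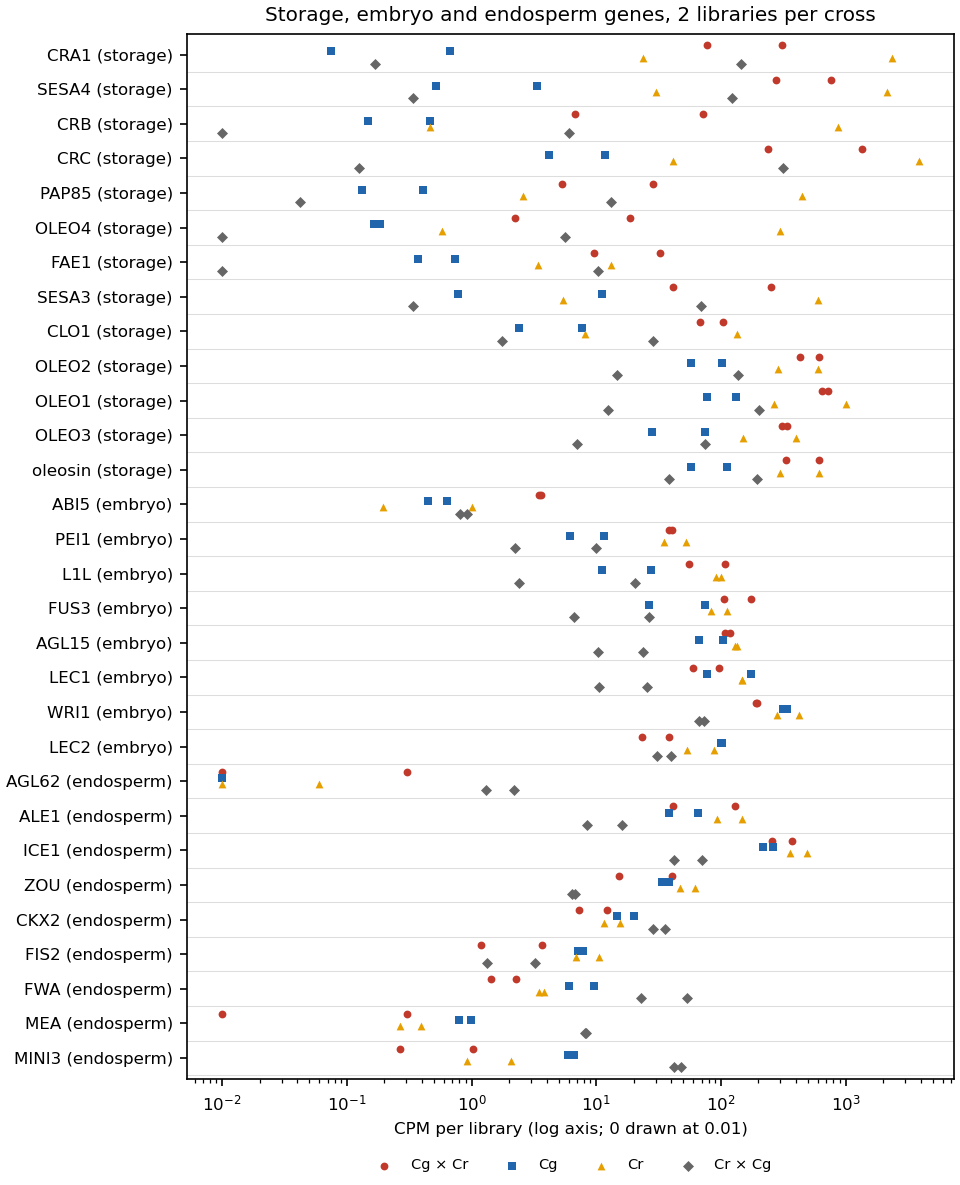
Level of 30 homologues of Arabidopsis storage and oil body genes, embryo regulators and endosperm regulators (rows, ordered by fold change within each list; x axis, CPM per library, log axis, with 0 drawn at 0.01). Red circles are Cg × Cr, blue squares Cg, orange triangles Cr and grey diamonds Cr × Cg, 2 libraries each. Storage and oil body genes lie right of Cg in both Cg × Cr libraries, and their Cr and Cr × Cg replicates are far apart.

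Of 19 pectinesterase genes tested, enzymes that remove methyl groups from pectin, 2 were called higher and 2 lower, and the median log2 fold change was 0.14. With the replicate number as a block 1 was called in each direction, and without Cg replicate 1 or without Cg × Cr replicate 1 only 1, a lowered gene, was called. Carubv10022941m.g (AT2G45220) had 370 and 149 counts in Cg × Cr, against 19 and 14 in Cg, and rose by 3.95 ± 0.55 (SE) on the log2 scale, with an edgeR adjusted p of up to 0.089 when 1 library was left out. Carubv10017009m.g (AT3G43270) had 207 and 231 counts in Cg × Cr, against 40 and 43 in Cg, with a call that was lost without any 1 of the 4 libraries (edgeR adjusted p of 0.11 to 0.17). Lowered were Carubv10002644m.g (AT4G02300), with 34 and 41 counts in Cg × Cr, against 152 and 281 in Cg, and Carubv10021607m.g, given above. The call of the first was also lost in each such fit (adjusted p of 0.058 to 0.22). Another gene paired with AT3G24130, Carubv10003190m.g, had 7 and 7 counts in Cg × Cr, against 19 and 7 in Cg, so the genes paired with this locus had unlike values.

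No call was made among 6 kinesin and cytokinesis genes (median log2 fold change of -0.21, 0 at an unadjusted p under 0.05) or 3 cyclin and cyclin-dependent kinase genes (0.02, 1 under 0.05), and DESeq2 called none of these. Seed coat genes of flavonoid and mucilage synthesis were expressed in all 4 libraries, with summed levels of 1911 and 1560 CPM in Cg × Cr, against 1782 and 1456 CPM in Cg. None of the 6 was called by edgeR or DESeq2, none had an unadjusted p under 0.05, and the median was 0.06. Most of the sum came from Carubv10025920m.g (AT5G49360), with 1403 and 1317 CPM in Cg × Cr. Carubv10008513m.g (211 and 48.1 CPM), Carubv10019275m.g (84.4 and 20.4) and Carubv10024078m.g (87.2 and 19.4) were unequal between the Cg × Cr replicates. Carubv10003771m.g (55.8 and 74.3) and Carubv10018603m.g (70 and 81) differed less, in the other direction. Of other tissues, 3 photosynthesis genes summed to 1691 and 1414 CPM in Cg × Cr, against 2093 and 1285 CPM in Cg, with no call by edgeR or DESeq2 and 1 gene under an unadjusted p of 0.05. The 1 pollen gene that could be tested, Carubv10024512m.g (AT2G47040, the pollen pectinesterase VANGUARD1), had 2.69 and 6.28 CPM in Cg × Cr, against 1.90 and 4.66 CPM in Cg. The part of tissue shares in the changes above was not tested.

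**Figure D5:**
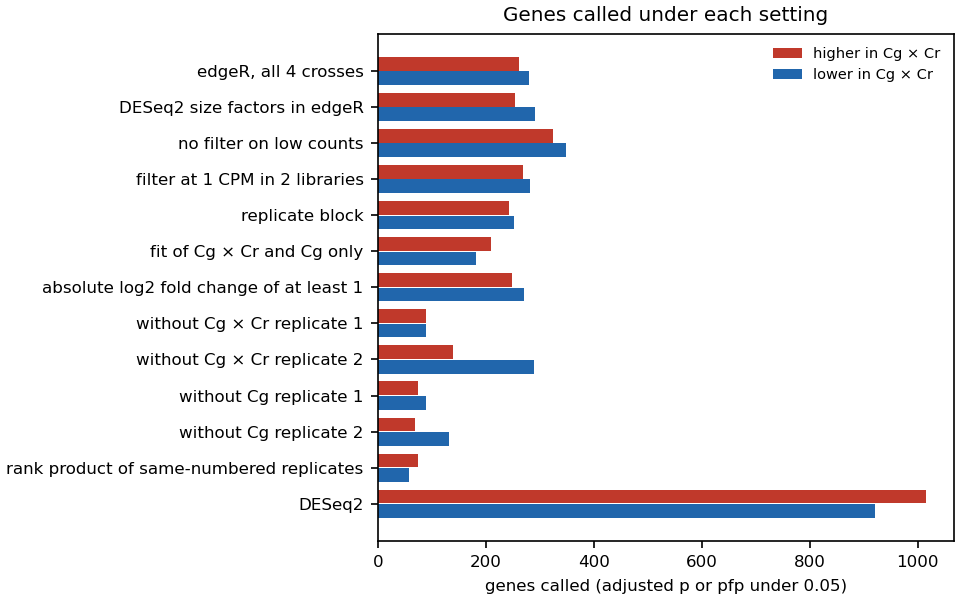
Number of genes called higher (red) and lower (blue) in Cg × Cr against Cg under each setting (rows; x axis, genes, from 0). The 4-cross edgeR fit gives 262 and 279, against 253 and 291 with DESeq2's size factors, 324 and 349 with no filter on low counts, 74 and 88 without Cg replicate 1, and 1016 and 921 with DESeq2.

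Without Cg replicate 1, 74 genes were higher and 88 lower, and without Cg replicate 2, 68 and 131 (edgeR, with the lone Cg library assumed to vary like the other crosses).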

How the data were processed

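RNA-sequencing counts of seeds from 4 crosses, with 2 biological replicates each, were used. The authors deposited whole-number read counts per gene without normalization. According to their methods and processing notes, reads were trimmed with Trimmomatic, mapped with Stampy 1.0.23 to version 1.0 of the C. rubella genome from Phytozome, filtered with SAMtools to drop reads with multiple locations, and counted with HTSeq under default options. C. grandiflora reads were therefore mapped to the other species, near-identical genes lost reads, and the kit does not mark strand, so overlapping antisense genes cannot be told apart.

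Tests were run with edgeR 4.0.16 and limma 3.58.1 under R 4.3.3. The filter was filterByExpr (count minimum of 10), the scaling TMM (factors from 0.955 to 1.031 over the 8 libraries), and the model edgeR's quasi-likelihood fit with the robust option, with all 4 crosses in it and 4 residual degrees of freedom. Benjamini-Hochberg adjustment ran over 21214 genes, and an adjusted p under 0.05 made a call. The SE is the absolute log2 fold change divided by the square root of the F statistic, so it restates the test. Fitted fold changes of genes at 0 in a cross depend on edgeR's prior count, so a bound at 3 counts over that cross is given instead. Alternatives were DESeq2 1.42.0, its size factors in edgeR, no filter, a minimum of 1 CPM in 2 libraries, a replicate block, a fit of Cg × Cr and Cg only, calls limited to changes of 1 or more on the log2 scale, a rank product over replicates with the same number (100 permutations, pseudocount of 1) and each library left out. The omission of Cr and Cr × Cg libraries in the comparison of Cg × Cr with Cg was chosen after seeing the data. The edgeR steps were tested on simulated data. Tables and plots were made with matplotlib 3.10.9, SciPy 1.17.1, NumPy 2.4.6 and pandas 2.3.3 under Python 3.11.15.

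Arabidopsis genes were paired through the study's tables of changed genes and of type I MADS-box genes only, which pair 3669 identifiers of the count table. Some columns of the first table repeat their header above a copy of another column, and were read up to that point. Lists defined by protein names could not be used without an annotation, and no sequences are given. Named were the 10 largest increases and decreases among genes called without each of the 4 libraries with at least 1 CPM, the 5 most abundant raised and lowered genes, up to 4 called genes with the smallest p per list, and up to 5 called genes with the largest interaction. Members of lists that were not called and Carubv10003190m.g were named after their values had been seen. The comparison, the lists and the naming rule were chosen with earlier results of these data known. The authors' own rank product calls were not used as results. Intervals and floors cover counting error only.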

Additional observations from a re-analysis of the deposited data

Results flagged for a closer look

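The father effect, C. rubella against C. grandiflora, differed between Cg and Cr mothers in 1240 genes (edgeR interaction test, Benjamini-Hochberg adjusted p under 0.05). Among them were 24 of the 48 named genes. Some named genes were chosen for a large interaction, and the others on the change with Cg mothers, which is part of the interaction. The count of 24 is therefore a description. The values below are log2 interactions, the effect in Cg mothers minus that in Cr mothers, and those of genes with no count in Cg depend on the prior count and are no bounds.

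Genes with 0 to 5 counts in total in Cg gave the largest values. They were 9.73 for Carubv10027725m.g, 9.21 for Carubv10028246m.g, 9.07 for Carubv10019219m.g, 8.85 for Carubv10021521m.g, 8.81 for Carubv10023473m.g and 8.75 for Carubv10021614m.g. Carubv10025718m.g had 8.49, Carubv10007936m.g 8.06, Carubv10005812m.g 7.73, Carubv10025518m.g and Carubv10007863m.g 7.43 each, Carubv10007803m.g 7.41 and Carubv10025184m.g 7.23. Except for Carubv10027725m.g, with 1 or 2 counts per library, all of these were expressed in both crosses of Cr mothers. Where counts come only from the C. rubella copy, Cg is the only cross without that copy. A large positive interaction is then fixed by the crosses, so these values are a description. Carubv10021521m.g had 129 and 64 counts in Cg × Cr and Carubv10023473m.g 25 and 64, against none in Cg.

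Of the genes with more counts in Cg, Carubv10005768m.g (AT4G15715) had 5.67 and Carubv10024631m.g (AT2G31480) 4.99. Both were near the floor in Cg, with 13 and 4 counts for the first and 5 and 7 for the second. The pectinesterase homologue Carubv10017009m.g had 3.42, with only 15 and 8 counts in Cr and 30 and 15 in Cr × Cg. The CASP-like homologue Carubv10005811m.g had 1.22. The cystatin homologue Carubv10024940m.g had 3.92, since it fell with both mothers and by more in Cr mothers.

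Negative values belonged to genes that fell with Cg mothers. The SDI1 homologue Carubv10026830m.g had -6.24, Carubv10003363m.g -5.14, the defensin homologue Carubv10018340m.g -3.91 and the LEAFY COTYLEDON2 homologue Carubv10010882m.g -2.73, all with a positive log2 fold change in Cr mothers, the last not called there. Carubv10007086m.g (-6.02) and the inhibitor homologue Carubv10027521m.g (-2.59) fell by less in Cr mothers, where the effect of the second was not called.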

How the results depend on the processing

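All 48 named genes kept their direction under every alternative except the rank product, which was used for counts only, and their calls were kept by DESeq2, its size factors, either filter setting and the fold threshold. With the fit of Cg × Cr and Cg only 38 kept their call, and without 1 library 29 to 41. Against 262 higher and 279 lower genes, DESeq2 called 1016 and 921, including 261 and 279 of these, the fit of both crosses only 209 and 182, and the rank product 74 and 57. The causes of these differences were not tested. Without 1 library, higher genes numbered 68 (Cg replicate 2) to 244 (Cr × Cg replicate 2) and lower genes 88 (Cg replicate 1) to 289 (Cg × Cr replicate 2). Without Cg × Cr replicate 1, 89 were higher and 89 lower, without Cg × Cr replicate 2, 139 were higher, without Cg replicate 1, 74 were higher, and without Cg replicate 2, 131 were lower. Interaction calls, 1240 in all, became 2536 with DESeq2 and 322 (without Cr replicate 2) to 940 (without Cr replicate 1), with 371 when Cg replicate 1, 437 when Cr × Cg replicate 2 and 725 when Cg × Cr replicate 2 was left out. Called members of all lists, 160, became 484 with DESeq2 and 41 (without Cg replicate 1) to 169 (without Cg × Cr replicate 2), with 63 when Cg replicate 2 and 59 when Cg × Cr replicate 1 was left out. A lone library is assumed to vary like the other crosses.

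Replicate numbers were not taken to pair samples, since the labels name no shared batch or day and the replicate differences of Cg × Cr and Cg correlated with r of 0.0788 across genes. Storage and oil body genes, however, summed to more in replicate 1 than in replicate 2 of each of the 4 crosses (5187 and 2467 CPM in Cg × Cr, 458 and 231 CPM in Cg, 13357 and 1122 CPM in Cr, 1323 and 75.4 CPM in Cr × Cg). With the number as a replicate block, 243 genes were higher and 252 lower, 186 and 219 of them called without it, 932 passed the interaction test, and 43 of the 48 named genes kept their call. The study lists a higher mapping efficiency for the lower-numbered replicate of Cr, Cr × Cg and Cg. In Cg × Cr the order was reversed, and both libraries lay nearer to the higher-numbered Cg library. The replicate block does not follow this split. Whether the split marks a batch, and its part in the comparison of Cg × Cr with Cg, was not tested.

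With 2 libraries per cross, 4 residual degrees of freedom carry the tests, and changes of genes at 0 in a cross are known only as bounds. Storage and oil body genes, none of them called with all 4 crosses, had 6 calls in the fit of Cg × Cr and Cg only, 8 by the rank product, 2 with DESeq2 and 1 with the replicate block.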
